A study of Mus musculus with 6 samples.

Results

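The genes described here are 40 genes of the cell division cycle, chosen by symbol: 26 that act in mitosis and 14 that act at the entry to S phase or in DNA replication. All 40 had at least 1 probe on the array, 51 probes in all, among 20659 named genes measured. Expression was measured in total RNA from the heart ventricles of 21-week-old female C57BL/6N mice, with 1 sample per 1-colour (Cy3) array. In the sleep fragmented group (3 arrays) the mice had undergone 5 weeks of sleep fragmentation, and the control group (3 arrays) had been left undisturbed; no genetic change or other agent is named for either group. Whether each array had its own mouse is not stated, so p-values refer to a spread between replicates that may be technical. Single arrays detected 59.2% to 72.6% of all probes above background, with the least on sleep fragmented replicate 1.

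Genes of the cell cycle are transcribed in waves. E2F factors, held back by the retinoblastoma protein in resting cells, switch on the genes that load and copy DNA at the start of S phase. A later wave supplies the cyclins, kinases, motors and kinetochore proteins of mitosis. The MuvB complex with B-Myb and Foxm1 drives it through cell cycle homology region (CHR) elements, and CCAAT boxes are common in the same promoters. Cardiac muscle cells of the adult mouse rarely divide, and the dividing cells of the ventricle are mostly endothelial, stromal and blood-derived. In such bulk samples more dividing cells and more RNA per dividing cell cannot be told apart.

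On the scale used for the test, mitotic genes lay higher in the sleep fragmented hearts as a rule and S-phase genes did not. Levels are log2 signals minus the array's 75th percentile of signal. Over the 26 mitotic genes, each by its brightest probe and with none left out as dim, the median log2 fold change (sleep fragmented over control) was 0.71, and 24 were positive. Over the 14 S-phase genes the median was 0.14, with 9 positive, and over all named genes it was 0.13, with 66.8% positive. When the arrays were quantile normalized instead, the medians were 0.47 for mitotic genes (23 of 26 positive), 0.09 for S-phase genes (9 of 14) and 0.01 for all genes (51.4%). The difference between both groups of members was not tested, because a score over chosen genes has no valid p.

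No member passed the test. By limma, with Benjamini-Hochberg adjustment over all 25221 probes tested, 0 of 23 members with a kept probe (one called well above background by all 3 arrays of a group or of both) had an adjusted p under 0.05, beside 0% of all kept probes, and the smallest adjusted p of a member was 0.938. Without adjustment 735 of the probes (2.91%; 3.6% with quantile normalization) had p under 0.05, and so did 5 members, each of them at least 1.5-fold higher: Prc1, Cenpe, Ccna2, Mki67 and Plk1. Of all named genes with a kept probe 1.22% were higher by this looser rule and 0.729% lower, and no member was lower. With quantile normalization these shares were 0.405% and 1.11%, and 2 members (Mki67 and Prc1) were higher. The 5 are 5 of the 13 mitotic genes with a kept probe, but 4 of them (all except Mki67) were above background on 2 of 3 controls and entered only because the sleep fragmented group passed, so their presence among the kept genes is not independent of the difference. Of the 16 members detected by all 6 arrays, 1 (Mki67) was higher by the rule, beside 135 of 13390 named genes so detected. The count of 5 was 9 without control replicate 2, where 164 of 14550 named genes were higher by the rule. Without sleep fragmented replicate 3 the count was 8, beside 232 of 14550 named genes. Each group has a scan time of its own in the file headers, so scan and group cannot be told apart for any difference.

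The start regions of the members were searched for the elements of both waves. In the RefSeq promoter table (GRCm38.p6, 250 bases before to 50 after each start, 33 of the 40 members listed, some with 2 starts) a CHR element, TTTGAA or TTCGAA on either strand, was found in 19 of 23 windows of mitotic genes (82.6%), in 2 of 13 of S-phase genes (15.4%) and in 19.2% of all 32851 windows. A CCAAT box, CCAAT on either strand, was found in 91.3%, 69.2% and 37.4%. An E2F core (the letters TTGGCGC or the letters TTCGCGC or the letters TTCCCGC or the letters TTGCCGC, on either strand, where 2 matches on opposite strands can overlap and both count) was found in 21.7% of mitotic, 53.8% of S-phase and 9.57% of all windows. The windows printed, 5′ to 3′ along the gene with matches in capitals, are those of the 3 mitotic genes with the largest folds by the looser rule that the table lists, and of the 2 brightest S-phase genes it lists. They are Prc1 (chr7:80294201-80294500, plus strand), Cenpe (chr3:135212313-135212612, plus strand), Mki67 (chr7:135716330-135716629, minus strand), Pcna (chr2:132253131-132253430, minus strand) and Mcm6 (chr1:128359656-128359955, minus strand).
Prc1: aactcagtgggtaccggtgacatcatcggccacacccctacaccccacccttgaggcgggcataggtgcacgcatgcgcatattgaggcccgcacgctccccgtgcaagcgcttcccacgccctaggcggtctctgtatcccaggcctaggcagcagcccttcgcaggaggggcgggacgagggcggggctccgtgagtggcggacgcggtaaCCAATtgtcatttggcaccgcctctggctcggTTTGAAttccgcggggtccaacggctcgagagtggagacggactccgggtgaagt
Cenpe: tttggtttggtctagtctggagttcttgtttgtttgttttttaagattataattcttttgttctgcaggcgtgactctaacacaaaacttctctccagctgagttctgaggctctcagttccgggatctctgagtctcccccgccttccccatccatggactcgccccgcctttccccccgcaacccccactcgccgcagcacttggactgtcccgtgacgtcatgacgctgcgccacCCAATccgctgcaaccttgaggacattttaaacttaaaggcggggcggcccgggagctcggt
Mki67: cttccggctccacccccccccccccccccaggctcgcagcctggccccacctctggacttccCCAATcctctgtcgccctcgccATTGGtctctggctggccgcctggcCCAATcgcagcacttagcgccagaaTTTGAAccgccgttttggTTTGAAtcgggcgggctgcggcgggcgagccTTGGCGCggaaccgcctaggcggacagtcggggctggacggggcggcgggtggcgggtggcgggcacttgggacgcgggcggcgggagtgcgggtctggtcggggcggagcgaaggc
Pcna: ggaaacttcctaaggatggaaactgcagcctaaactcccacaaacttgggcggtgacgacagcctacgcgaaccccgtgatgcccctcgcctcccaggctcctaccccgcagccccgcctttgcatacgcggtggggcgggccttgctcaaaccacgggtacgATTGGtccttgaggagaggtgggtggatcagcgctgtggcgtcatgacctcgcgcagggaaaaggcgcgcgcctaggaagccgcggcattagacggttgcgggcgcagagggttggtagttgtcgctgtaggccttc
Mcm6: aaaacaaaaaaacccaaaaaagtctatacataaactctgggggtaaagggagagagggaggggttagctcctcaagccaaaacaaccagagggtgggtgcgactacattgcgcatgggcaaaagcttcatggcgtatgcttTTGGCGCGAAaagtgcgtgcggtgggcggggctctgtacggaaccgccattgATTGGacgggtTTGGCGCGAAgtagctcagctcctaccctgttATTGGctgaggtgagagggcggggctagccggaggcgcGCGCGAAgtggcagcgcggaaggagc
Prc1 has a CHR element that begins 5 bases before the start used for its printed window and reaches that start, with a CCAAT box further upstream. From the other start listed for Prc1 the element begins at -30. Mki67 has 2 CHR elements, 3 CCAAT boxes and 1 E2F core. The window of Cenpe holds a CCAAT box, and these letters of the CHR element are not in it. Mcm6 has 5 E2F cores, 4 of them in overlapping pairs on opposite strands, and 2 CCAAT boxes, while Pcna has 1 CCAAT box. A match is a string of letters, and binding was not measured. Aurkb, Ccna2, Ccne2, Foxm1, Kif20a, Mcm4 and Tpx2 were not matched.

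Mki67, the nuclear protein used as a marker of dividing cells, was measured well above background on all 6 arrays. Its level was -2.06, -1.79 and -1.94 on the controls and -1.07, -0.96 and -1.49 on the sleep fragmented arrays. The groups did not overlap, and the difference on the log2 scale was 0.76 ± 0.20 (SE, with n = 3 in each group; unadjusted p = 0.00448, adjusted p = 0.938 by limma). The processed signals before scaling were 60.5, 70.2 and 53.9 on the controls and 58.6, 113 and 72.8 on the sleep fragmented arrays, and these overlap. The 75th percentile of signal was 123 on sleep fragmented replicate 1 and 204 to 252 on the others. With quantile normalization the value was 0.63 ± 0.22 (SE) and the groups overlapped. A second Mki67 probe gave 0.64 ± 0.29, with overlapping groups.

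The cyclins that drive the mitotic kinase lay in the same direction with more spread. Ccna2, cyclin A2, stood at -2.71, -2.64 and -3.14 on the controls and at -1.79, -1.39 and -2.40 on the sleep fragmented arrays, without overlap (0.97 ± 0.28, unadjusted p = 0.00655, adjusted p = 0.938 by limma). Ccnb2, cyclin B2, stood at -2.83, -2.65 and -4.86 against -2.12, -1.19 and -2.96, and its groups overlapped (1.35 ± 0.60). Control replicate 3 was far below the other controls for this gene. Ccnb1, cyclin B1, was above background on 0 of 3 controls and 1 of 3 sleep fragmented arrays, and Cdk1, the kinase that these cyclins activate, was above background on 1 array of each group. Foxm1, the transcription factor of the mitotic wave, had levels of -2.85, -3.20 and -3.25 against -2.16, -2.85 and -2.83. Its groups touch at this precision, and its log2 fold change was 0.49 ± 0.24. Ccnb2 and Foxm1 were each above background on 2 of 3 controls and had a kept probe only through the sleep fragmented arrays.

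Among the mitotic kinases and the checkpoint, Plk1, the polo-like kinase that acts from mitotic entry to cytokinesis, had the least spread. Its level was -2.75, -2.95 and -2.94 on the controls and -2.25, -2.29 and -2.17 on the sleep fragmented arrays (0.64 ± 0.17, unadjusted p = 0.00450, adjusted p = 0.938 by limma). The groups stayed apart with quantile normalization (0.40 ± 0.19). Plk1 lies near the limit of detection, with processed signals before scaling of 37.4, 31.5 and 27.1 on the controls and 25.8, 45.1 and 45.3 on the sleep fragmented arrays, which overlap. Ttk, the Mps1 checkpoint kinase, did not share the direction: its levels were -2.71, -3.25 and -2.07 against -2.53, -3.04 and -2.77 (-0.10 ± 0.30). Bub1, a kinetochore kinase of the spindle checkpoint, was above background on 0 controls and 1 sleep fragmented array (bound, 1.13-fold higher). Such bounds, on the 75th percentile scale, set the mean of the sleep fragmented arrays against the lowest signal called above background on each control. That mean includes undetected arrays, so the bounds are not strict minimum folds. Bub1b, a relative of Bub1, was above background on 1 control and 2 sleep fragmented arrays, and Aurka on 2 of each. Aurkb was above background on 0 of 6, where its value carries only the arrays' floor. Cdc20, the activator of the anaphase-promoting complex, was well above background on all arrays, with levels of -2.07, -1.63 and -2.74 against -1.29, -0.77 and -2.10 (0.76 ± 0.37), and the groups overlapped.

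Of the centromere and chromosomal passenger genes, the brightest showed the smallest difference. Cenpa, the histone H3 variant of centromeres, was the brightest mitotic gene, with levels of 0.09, -0.32 and -0.22 on the controls and -0.05, -0.46 and -0.05 on the sleep fragmented arrays (-0.03 ± 0.20). Cenpe, a kinetochore motor, stood at -2.85, -2.86 and -4.44 against -2.28, -1.45 and -2.45, without overlap (1.33 ± 0.44, unadjusted p = 0.0146, adjusted p = 0.938 by limma). Birc5 (survivin), a passenger protein, had levels of -1.52, -0.70 and -1.77 against -0.44, -0.22 and -1.14 (0.73 ± 0.33), with overlap, and its other kept probe gave 0.26 ± 0.28. Cdca8 (borealin), its partner, gave 0.33 ± 0.27 by its brighter probe, which was above background on all arrays, and 0.93 ± 0.36 by the other. That other probe was above background on 1 of 3 controls and kept only through the sleep fragmented arrays. Its value is thus not independent of the filter, and the size differed between the probes. Cenpf was above background on 0 controls and 1 sleep fragmented array.

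Genes of the spindle and of cytokinesis held the largest single difference. Prc1, which bundles microtubules at the midzone, stood at -2.84, -3.37 and -3.83 on the controls and at -2.24, -0.90 and -2.63 on the sleep fragmented arrays. The groups did not overlap, sleep fragmented replicate 2 lay far above the others, and the difference was 1.42 ± 0.43 (2.68-fold, unadjusted p = 0.00907, adjusted p = 0.938 by limma). With quantile normalization it was 1.12 ± 0.49 with overlap. Kif20a, a midzone motor, had levels of -2.11, -2.25 and -1.98 against -1.58, -1.51 and -2.0 (0.41 ± 0.20), with overlap. Nusap1, a spindle-associated protein, was above background on 0 controls and 2 sleep fragmented arrays (bound, 1.59-fold higher). Its groups overlapped, with sleep fragmented replicate 3 (-4.16) below control replicates 2 and 3 (-3.85 and -4.08). Ect2, the exchange factor for RhoA in cytokinesis, was above background on 0 and 1 (bound, 1.14-fold higher), with overlapping groups. Kif23 was above background on 1 and 2, Tpx2 on 2 and 2, and the spindle motor Kif11 on 0 of 6. Top2a, the topoisomerase that untangles chromosomes, was above background on 0 controls and 2 sleep fragmented arrays.

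**Figure D1:**
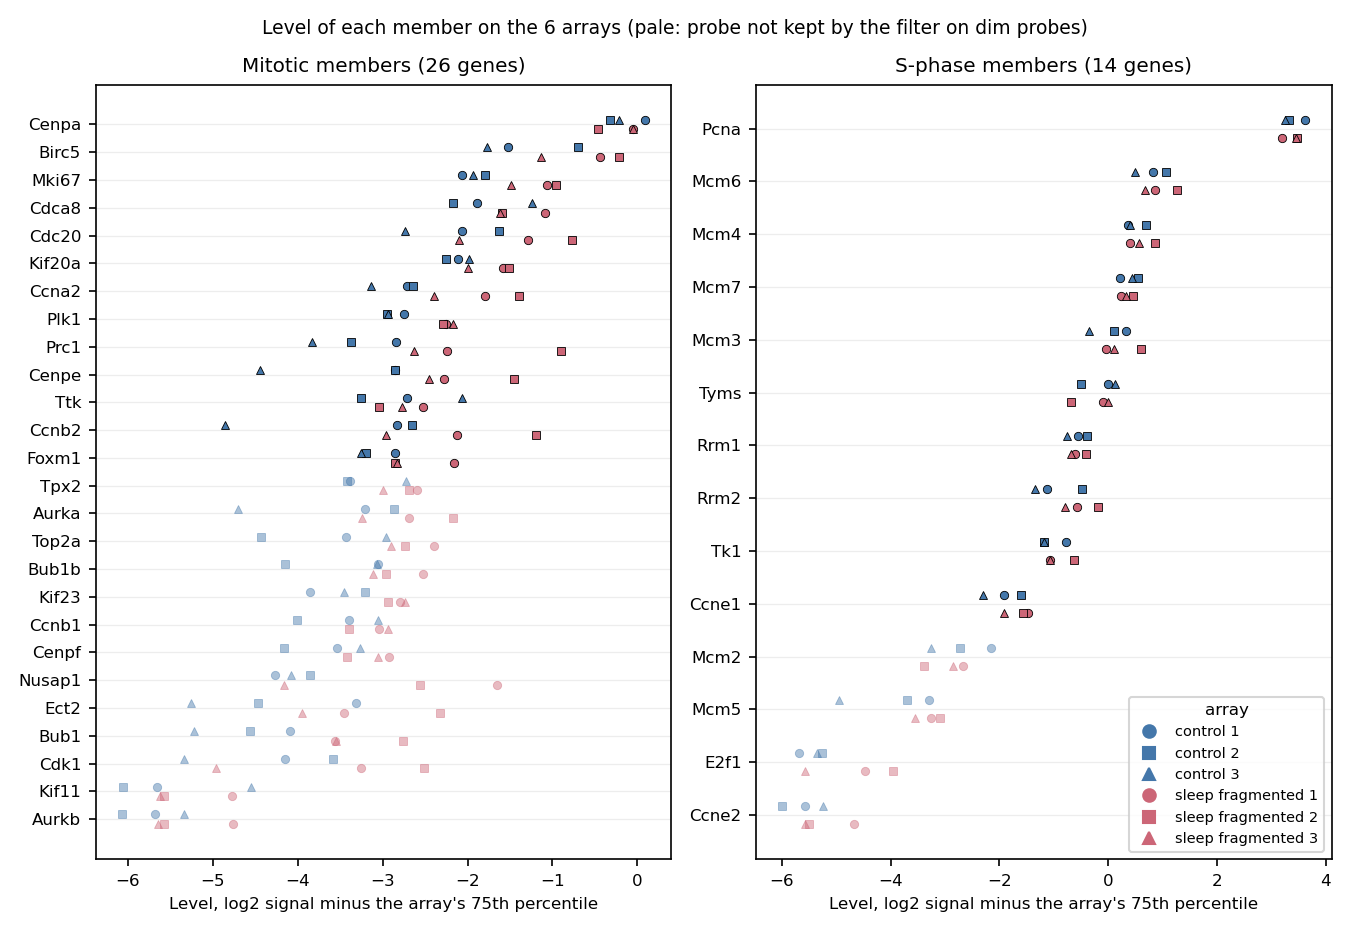
Level of each member on each array (x axis, log2 signal minus the array's 75th percentile of signal), with mitotic members left and S-phase members right, ordered by mean level; each point is 1 array, colours give the group, shapes the replicate, and pale points a probe not kept. The sleep fragmented points of Mki67, Plk1, Ccna2, Cenpe and Prc1 lie to the right of all controls, while those of Pcna, Mcm6 and Mcm4 lie among them.

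In all, 9 of 26 mitotic genes (34.6%) had every sleep fragmented array above every control, and 0 had the reverse; over all named genes the shares were 4.74% and 2.94%. With quantile normalization 4 of 26 (15.4%; Plk1, Top2a, Bub1 and Cenpf) were higher without overlap, against 4.01% of all genes, and 0 were lower, against 4.95%. Top2a, Bub1 and Cenpf were above background on 0 controls. Of the 9, Top2a, Bub1 and Kif23 had no kept probe. The order of these genes thus rests on undetected values. Plk1, Ccna2, Cenpe, Prc1 and Foxm1 of the 9 were above background on 2 of 3 controls and kept only through the sleep fragmented arrays. Mki67 alone of the 9 was above background on all 6 arrays. With all named genes in 5 bins by mean level, the second dimmest bin holds 15 mitotic genes. In it 7.5% of all genes were higher without overlap (5.18% with quantile normalization). Of the 14 S-phase genes, 0 had groups that did not overlap under either scaling.

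The S-phase genes were brighter and nearly level between the groups. The clamp of the replication fork, Pcna, was the brightest member, with levels of 3.63, 3.32 and 3.25 on the controls and 3.19, 3.47 and 3.46 on the sleep fragmented arrays (-0.02 ± 0.19, SE, n = 3 arrays per group). Of the helicase subunits, Mcm6 had levels of 0.82, 1.06 and 0.50 against 0.86, 1.26 and 0.68 (0.14 ± 0.23). Mcm4 had a log2 fold change of 0.13 ± 0.20, Mcm3 of 0.20 ± 0.25 and Mcm7 of -0.06 ± 0.18, and their groups overlapped. Mcm2 (-0.26) and Mcm5 (0.68) were above background on 2 controls and 1 sleep fragmented array each and were not tested.

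The enzymes that supply nucleotides did not share a direction. Rrm2, the regulated subunit of ribonucleotide reductase, gave the largest tested S-phase value: its levels were -1.12, -0.48 and -1.34 against -0.57, -0.18 and -0.79 (0.47 ± 0.27), with overlap. Rrm1, the catalytic subunit, gave -0.01 ± 0.19. Tyms, thymidylate synthase, gave -0.14 ± 0.25 and Tk1, thymidine kinase, 0.12 ± 0.21. Of the regulators of S-phase entry, Ccne1, cyclin E1, gave 0.29 ± 0.23, while Ccne2 and E2f1 were above background on 0 of 6 arrays.

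The difference moved with brightness on the 75th percentile scale. When all named genes were cut into 5 equal bins by mean level, the median log2 fold change was 0.37, 0.28, 0.17, 0.00 and -0.04 from the dimmest bin to the brightest. Of the 26 mitotic genes, 20 lay in the 2 dimmest bins and 1 in the 2 brightest, and of the 14 S-phase genes 8 lay in the 2 brightest. In the second dimmest bin, which holds 15 mitotic genes, 83.2% of all genes had a positive value. Genes above background on 0 arrays, whose values carry the floor of the arrays, had a median of 0.37. Quantile normalization removes this slope (0.02, 0.02, 0.02, -0.01 and -0.01), with 53.2% of that bin positive, and there the median of the mitotic genes was 0.47. The 6 mitotic genes above background on all arrays had a median of 0.57 on the 75th percentile scale, and the 10 such S-phase genes one of 0.13. Over all named genes so detected it was 0.05, with 58.3% positive. Most of these mitotic genes were dimmer than most of these S-phase genes, so the sets are not matched for brightness.

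**Figure D2:**
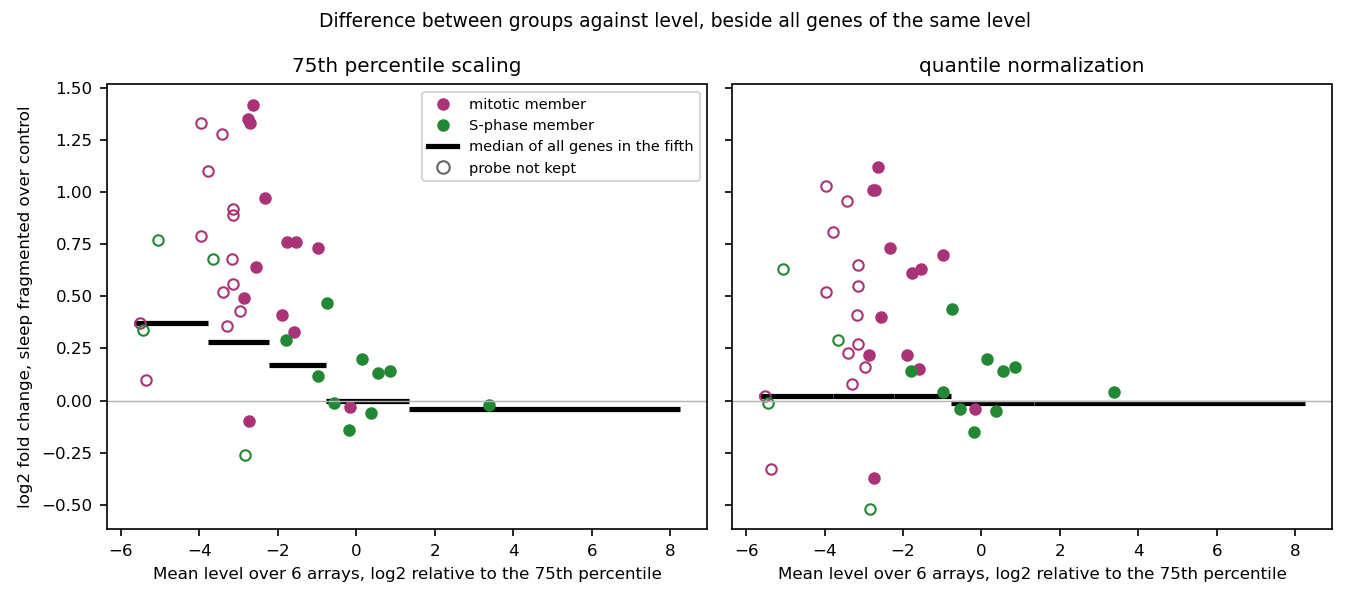
Log2 fold change, sleep fragmented over control (y axis), against mean level over the 6 arrays (x axis, log2 relative to the 75th percentile), with 75th percentile scaling left and quantile normalization right; points are members, open where the probe was not kept, and bars give the median of all named genes in each of 5 brightness bins. The bars fall from 0.37 to -0.04 on the left and stay between 0.02 and -0.01 on the right, and most mitotic members lie above them in both.

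The arrays of each group did not contribute alike. The median over the mitotic genes of the level minus its control mean was 0.12, -0.09 and -0.04 on control replicates 1, 2 and 3 and 0.89, 0.73 and 0.33 on the sleep fragmented replicates. With quantile normalization the values were 0.12, 0.21 and -0.23 against 0.47, 0.65 and 0.06, so that sleep fragmented replicate 3 lay within the range of the controls. Sleep fragmented replicate 2 was the highest of the 6 arrays for 12 of the 26 genes (15 with quantile normalization). Control replicates 2 and 3 were the lowest for 11 each (5 and 14 with quantile normalization). Of all 20659 named genes, sleep fragmented replicate 2 was the highest for 2642 (3311 with quantile normalization). Sleep fragmented replicate 1 was the highest for 8 of the 26 and for 7489 of all named genes (6 and 4379 with quantile normalization). On that array the median over all named genes of the level minus its control mean was 0.22 (-0.01 with quantile normalization). Control replicate 2 was the lowest for 9537 of all named genes and control replicate 3 for 1514 (5121 and 2290 with quantile normalization). Before quantile normalization, the low place of control replicate 2 was thus shared by named genes at large. The high place of sleep fragmented replicate 1 was shared by them in part. On control replicate 3, 8 of the 26 were well above background, against 15 and 17 on the other controls and 13, 22 and 20 on the sleep fragmented arrays. For the S-phase genes the medians were 0.03, 0.16 and -0.17 on the controls and 0.04, 0.38 and 0.03 on the sleep fragmented arrays, with sleep fragmented replicate 2 the highest and control replicate 3 the lowest. The barcodes in the file headers take 3 values, each held by 1 array of each group with the same replicate number. Within them the mitotic median differed by 0.70, 0.74 and 0.40, with 24, 25 and 18 of 26 positive, and by 0.22, 0.43 and 0.37 with quantile normalization. The median over all named genes differed by 0.22, 0.21 and -0.03, and by 0, 0.02 and 0 with quantile normalization. The S-phase median differed by 0.04, 0.19 and 0.18.

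**Figure D3:**
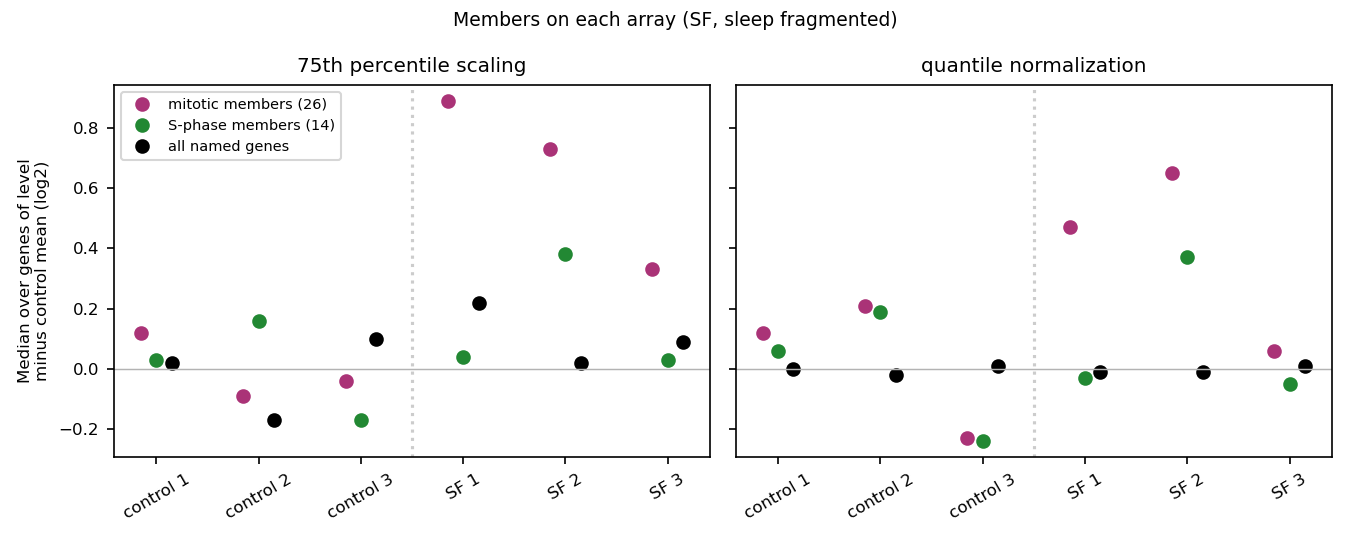
Median over genes of the level minus its mean on the controls (y axis, log2) for each array (x axis; SF, sleep fragmented), with 75th percentile scaling left and quantile normalization right, for 26 mitotic members, 14 S-phase members and all named genes. With quantile normalization the mitotic median on SF 3 (0.06) lies among the controls, while SF 1 (0.47) and SF 2 (0.65) lie above them.

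Cell cycle genes outside the 40, from lists that were also chosen with earlier results of these data known, are given for comparison. Of 55 other mitotic genes on the array 50 had a positive value, with a median of 0.41 (0.19 with quantile normalization, 43 positive). Over all named genes the median was 0.13 with 66.8% positive (0.01 and 51.4% with quantile normalization). Of the 30 with a kept probe 4 were higher by the looser rule, none lower, and 0 passed the adjusted threshold: Sgo1, which protects centromeric cohesion (0.79 ± 0.23), the condensin subunit gene Ncaph (0.76 ± 0.26), the chromosome-binding motor Kif22 (0.73 ± 0.32) and the cytokinesis scaffold Anln (0.93 ± 0.39). Sgo1 and Anln were above background on 2 of 3 controls and had a kept probe only through the sleep fragmented arrays. With quantile normalization 0 of the 30 met the rule. Of all named genes with a kept probe 1.22% were higher by the rule (0.405% with quantile normalization). Of 57 other replication genes 36 were positive, with a median of 0.11 (0.02 with quantile normalization), and 1 of 43 with a kept probe was higher by the rule. That gene, E2f2, an E2F activator, stood at -2.62, -2.43 and -2.73 on the controls and at 0.27, -1.58 and -2.22 on the sleep fragmented arrays (1.41 ± 0.53). Uhrf1, which recruits the maintenance DNA methyltransferase to replicated DNA, had the smallest p of that list (0.58 ± 0.18) and its groups did not overlap under either scaling.

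Genes of G1 control and cell cycle inhibition had a median of -0.08 over 30 genes, with 13 positive and 17 negative. Of the 27 with a kept probe 1 was higher and 1 lower by the looser rule, beside 1.22% and 0.729% of all named genes. E2f4, the E2F member that acts with pocket proteins in resting cells, had levels of -1.89, -2.38 and -2.38 on the controls and -3.65, -2.94 and -2.65 on the sleep fragmented arrays (-0.86 ± 0.28; -1.09 with quantile normalization), without overlap. It was above background on 2 of the 3 sleep fragmented arrays. Wee1, which inhibits Cdk1 and is also a clock-controlled gene, gave 0.69 ± 0.30 with overlap.

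Marker levels of other cell types differed between the arrays, and their part in these values was not tested. All 10 cardiomyocyte markers were well above background on all arrays. Their summed level, in units of the array's 75th percentile as for all sums here, was 949, 785 and 948 on the controls. On the sleep fragmented arrays it was 1330, 771 and 899, highest on replicate 1, whose 75th percentile of signal was the lowest (123 against 204 to 252). The median log2 fold change of these 10 was 0.08 (7 positive), and -0.07 with quantile normalization (2 positive). The summed level of the 13 erythroid markers on the array was 155, 160 and 149 on the controls and 456, 307 and 215 on the sleep fragmented arrays, highest on sleep fragmented replicate 1, where E2f2 was also highest. Of these markers, 9 were above background on all arrays, and Rhag and Epb42 were above background on 0. The summed level of the 8 fibroblast markers was 118, 105 and 107 on the controls and 156, 179 and 104 on the sleep fragmented arrays, so that replicates 1 and 2 were above the controls and replicate 3 was not. The 8 endothelial markers summed to 59.0 to 74.8 on the controls and 55.7 to 71.0 on the sleep fragmented arrays, and the 9 macrophage markers to 16.0 to 21.7 and 15.8 to 31.2. Lymphocyte markers summed to 3.70, 15.3 and 3.78 on the controls and 4.80, 3.76 and 3.83 on the sleep fragmented arrays. Control replicate 2 was thus far above every other array. Of the thymocyte markers, whose cells divide often, Rag1, Rag2, Ptcra and Themis were above background on 0 arrays, and the sums were 0.610 to 0.888 against 0.824 to 1.1. Neutrophil and precursor markers summed to 2.99 to 6.63 and 2.63 to 4.45. Atrial markers (16.4, 268 and 62.4 against 33.5, 358 and 70.5) and adipocyte markers (0.706, 19.9 and 3.32 against 1.05, 37.9 and 2.04) were highest on sleep fragmented replicate 2 and, among the controls, on replicate 2.

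**Figure D4:**
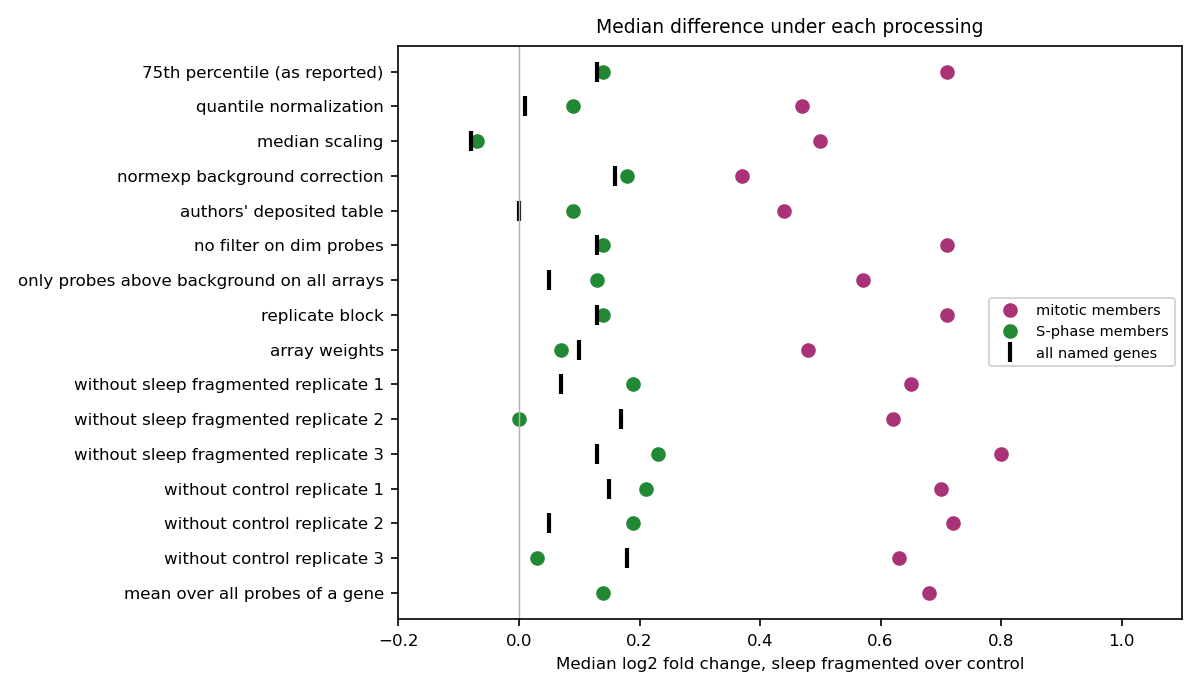
Median log2 fold change, sleep fragmented over control (x axis), of the 26 mitotic members, the 14 S-phase members and all named genes (black bars; not given for the mean over all probes) under each processing (y axis). The mitotic median lies between 0.37 and 0.80, and the S-phase median between -0.07 and 0.23.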

How the data were processed

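The 6 arrays (3 per group, taken from the end of each title) were deposited as scanner files. The intensity column used is the linear, background-subtracted processed signal of design 026655, which came from Feature Extraction 11.0.1.1 per the file headers, although 10.5.1.1 stands in the submitters' processing notes. A table of log2 values deposited by the authors has nearly the same sorted values on every array; its making is not described in the labels, and it served as an alternative. Control and outlier spots were left out and spots of a probe averaged. Each array's 75th percentile was subtracted from its log2 signals, and 25222 of 39429 probes were kept. Probes were named by RefSeq accession (69.1%; GRCm38.p6). Groups were compared with limma 3.58.1 in R 4.3.3 (lmFit, eBayes, two-sided, Benjamini-Hochberg over kept probes); 1 kept probe gave no value. A looser rule asked for 1.5-fold or more with p under 0.05 before adjustment. The fit was tested on simulated data.

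The members and gene lists were chosen with earlier results of these data known. Members with a kept probe were named with values, the others by flags; of other lists, up to 4 genes by the looser rule or the 2 with the smallest p. Alternatives were quantile and median scaling, normexp, the authors' table, other filters, the replicate block, array weights, all probes of a gene and leaving out each array.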

Additional observations from a re-analysis of the deposited data

How the results depend on the processing

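The mitotic median of 0.71 stayed positive under every alternative run: it was 0.47 with quantile normalization, 0.37 with normexp, 0.44 with the authors' table and 0.48 with array weights, and lay between 0.62 and 0.80 when single arrays were left out. The S-phase median of 0.14 was -0.07 with median scaling and lay between 0.00 and 0.23 without single arrays. The count of 5 members by the looser rule was 2 with quantile normalization, median scaling and the authors' table (Prc1 in each, with Mki67, Ccna2 and Mki67), 1 with normexp (Prc1) and 1 (Mki67) where every array had to detect the probe; it lay between 4 and 9 without single arrays, being 9 without control replicate 2 and 8 without sleep fragmented replicate 3. Of 14550 named genes, 59 were higher with quantile normalization, 56 with median scaling, 60 with the authors' table and 55 with normexp. Where every array had to detect the probe 135 of 13390 were higher, and without single arrays between 101 and 1185 of 14550. No member passed the adjusted threshold or was lower by the looser rule under any alternative (0 without any single array). The cause of these shifts was not tested.

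Same-numbered arrays deviated from their group means with r of 0.06, 0.55 and 0.21, so the fit without the block was kept; whether the number, or the barcode that goes with it, marks a shared slide is not known. With the replicate block, which equals the block by barcode, 8 members were higher (Ccnb2, Birc5 and Cdc20 besides the 5), beside 340 of 14550 named genes. With the block 4 probes passed the adjusted threshold, while 3 passed with normexp and 0 without any single array. Over all probes 317 were higher and 169 lower by the looser rule; the counts were 92 and 287 with quantile normalization, 92 and 574 with median scaling, 78 and 101 with normexp, 94 and 284 with the authors' table, 1216 higher with no filter and 642 higher with the replicate block. Without single arrays they lay between 149 and 2501 higher and 163 and 253 lower, with 2501 without control replicate 3, 863 without sleep fragmented replicate 2, 149 without sleep fragmented replicate 1 and 204 without control replicate 1.

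Of 544 values of single members under the alternatives, 36 changed sign, in 13 genes, none of the changed values beyond 0.33 in size. With quantile normalization these were Kif11 (-0.33), Pcna (0.04) and Ccne2 (-0.01), and with the authors' table Kif11 (-0.27), Pcna (0.04) and Ccne2 (-0.01). With median scaling they were Kif11 (-0.11), Mcm3 (-0.01), Mcm4 (-0.08), Mcm6 (-0.07) and Tk1 (-0.09), with normexp Ttk (0.14), Mcm2 (0.12), Mcm7 (0.06) and Rrm1 (0.10), and with array weights Mcm7 (0.06) and Tk1 (-0.07). Without single arrays the sign changed for, with the whole range, Cenpa (-0.12 to 0.10), Kif11 (-0.22 to 0.54), Ttk (-0.39 to 0.20), Pcna (-0.10 to 0.09), Mcm2 (-0.53 to 0.02), Mcm6 (-0.02 to 0.28), Mcm7 (-0.15 to 0.01), Rrm1 (-0.10 to 0.08), Tyms (-0.32 to 0.07) and Tk1 (-0.02 to 0.25). Most mitotic probes lie near background, which limits their precision.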
